A study of Mus musculus with 13 samples.

Results

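Chromatin accessibility was examined at 7 loci that hold the genes of the kinase Cdk6, the D-type cyclins Ccnd1, Ccnd2 and Ccnd3, and the cyclin-dependent kinase inhibitors Cdkn1a (p21), Cdkn1b (p27) and Cdkn1c (p57). The deposited table lists accessible regions by position in mm9, and a region was taken as a member when its midpoint lay in a window set around each gene. This rule found 91 of the 115295 regions: 26 in the Cdk6 window, 8 at Ccnd1, 8 at Ccnd2, 18 at Ccnd3, 11 at Cdkn1a, 7 at Cdkn1b and 13 at Cdkn1c. The rule used position alone and no measured value, but the members were chosen with earlier results of these data known.

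Progression of a resting cell into division depends on D-type cyclins, which bind Cdk6 or its relative Cdk4 and switch the kinase on. The active kinase phosphorylates the retinoblastoma protein and so relieves its block on genes of DNA replication. The Cdkn1 inhibitors bind cyclin-kinase complexes and restrain them. In haematopoietic stem cells (HSCs), which are mostly quiescent, Cdk6 is known for its part in leaving quiescence, and Cdkn1c and Cdkn1b for holding cells in it.

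The libraries, labelled as strain C57BL/6, came from mice that had each received a single Vwf+ HSC and were then classed by the lineages reconstituted over 16 weeks. The donor-derived HSCs, sorted from bone marrow as LSK Flt3- CD150+ CD48- CD45.2+ Gata1- cells, were profiled by Omni-ATAC-seq, which uses a transposase to tag open DNA, with 500 cells in each replicate. The groups were MUL-HSC from multilineage recipients (n = 4), PEM-HSC from PEM-restricted recipients (n = 6) and PLT-HSC from P-restricted recipients (n = 3). Shared by all groups were the Vwf+ donor cell, the strain and the sort. The labels do not give the ages of the mice or say whether each library had its own recipient. Library totals were 1307222 to 2831520 counts in MUL-HSC, 1276962 to 3851165 in PEM-HSC and 2378024 to 3307889 in PLT-HSC. Without an mm9 annotation the sorted cell type was not checked against marker genes. Calls over the whole table depended on single libraries. The 1431 called regions of PLT-HSC against MUL-HSC became 559, 635, 2116 and 485 without MUL-HSC replicates 1 to 4 in turn, and 350, 609 and 2034 without PLT-HSC replicates 1 to 3. The 494 of PEM-HSC against MUL-HSC became 83, 83, 1215 and 61 without MUL-HSC replicates 1 to 4, and ranged from 166 to 777 without 1 PEM-HSC library. The background shares of calls in these comparisons therefore move with the libraries used.

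The windows span, on chromosome 5, 3320000 to 3550000 (Cdk6); on chromosome 7, 152095000 to 152145000 (Ccnd1) and 150625000 to 150670000 (Cdkn1c); on chromosome 6, 127050000 to 127125000 (Ccnd2) and 134850000 to 134895000 (Cdkn1b); and on chromosome 17, 47630000 to 47745000 (Ccnd3) and 29205000 to 29250000 (Cdkn1a). Adjacent protein-coding genes, named from the order in RefSeq GRCm38.p6 alone, include Fam133b beside Cdk6, Tpcn2 beside Ccnd1, Tigar and Parp11 around Ccnd2, Taf8 and Bysl around Ccnd3, Srsf3 and Rab44 around Cdkn1a, Gpr19 and Apold1 around Cdkn1b, and Kcnq1 and Slc22a18 around Cdkn1c. A region in a window may therefore lie in or near one of these genes, and no region was assigned to an exon, an intron or a promoter.

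RefSeq (GRCm38.p6) promoter entries matched 4 of the 7 genes. The sequences of the regions themselves were not read, because no mm9 genome was used here. Instead, 250 bases before an annotated start are shown for the kinase gene Cdk6 and for the Cdkn1 genes Cdkn1a and Cdkn1b, so that their proximal sequences can be compared. The entries of Ccnd3, the other gene matched, are not shown. Capitals mark matches found on either strand. The E-box was searched for as CACGTG. Letters used for the GC box were GGGCGG. The box named for its own letters was CCAAT. For the TATA element the search used TATAAA, while the p53 half-site was represented by AACATGTC. All 3 lie on the plus strand. Their GRCm38.p6 positions are chr5:3343643-3343892 for Cdk6, chr17:29090729-29090978 for the more upstream of the listed Cdkn1a starts and chr6:134920151-134920400 for Cdkn1b, and these cannot be set against the mm9 positions used elsewhere.
Cdk6: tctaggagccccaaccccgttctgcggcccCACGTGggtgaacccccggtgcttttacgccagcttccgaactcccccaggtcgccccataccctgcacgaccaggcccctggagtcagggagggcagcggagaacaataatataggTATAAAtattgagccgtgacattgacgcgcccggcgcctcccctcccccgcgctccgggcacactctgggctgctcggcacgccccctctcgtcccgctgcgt
Cdkn1a: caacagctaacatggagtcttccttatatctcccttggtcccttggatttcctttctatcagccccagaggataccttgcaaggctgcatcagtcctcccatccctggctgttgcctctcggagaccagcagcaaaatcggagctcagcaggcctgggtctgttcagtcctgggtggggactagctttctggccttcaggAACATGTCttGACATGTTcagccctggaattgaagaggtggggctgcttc
Cdkn1b: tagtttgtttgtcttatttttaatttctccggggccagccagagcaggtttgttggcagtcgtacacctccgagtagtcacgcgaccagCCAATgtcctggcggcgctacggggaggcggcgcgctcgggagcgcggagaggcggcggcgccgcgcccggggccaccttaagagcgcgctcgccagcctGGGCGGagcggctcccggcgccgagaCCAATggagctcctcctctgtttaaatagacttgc
The Cdk6 stretch held 1 E-box, a match found in 6.02% of 32851 promoter entries of this length, and 1 TATA box (12.4%). The Cdkn1a stretch held 2 p53 half-site matches (0.432% of entries hold any) that lie 2 bases apart on opposite strands; p53 is the textbook activator of this gene. The Cdkn1b stretch held 2 CCAAT matches (33.8%) and 1 GC box (32.7%). The E2F letters TTTCGCGC, present in 0.256% of entries, had 0 matches in all 3. The Cdkn1b stretch had 28 CpG dinucleotides, against 22 for Cdk6 and 2 for Cdkn1a, where the median entry had 6. The other Cdkn1a entry, chr17:29093519-29093768, differed from the one shown, with 19 CpG dinucleotides, 2 GC boxes and 0 p53 half-site matches, so the contrast holds for the shown start and not for the gene. These matches describe letters in a window and say nothing of bound factors.

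Accessibility is given as CPM, a region's count per 1000000 of the library's TMM-scaled sum over tested regions. Regions were tested with edgeR's quasi-likelihood test over the whole table and called at an adjusted p under 0.05. Of the 91 members, 64 had enough counts to be tested, and the other 27 were too weak. Cdk6 lost the most to this filter, 16 of 26 regions, whereas 6 of 8 were tested at Ccnd1, 7 of 8 at Ccnd2, 15 of 18 at Ccnd3, 10 of 11 at Cdkn1a, 5 of 7 at Cdkn1b and 11 of 13 at Cdkn1c. A weak region could pass through the group in which it is high, so counts over the tested members are descriptions.

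In PLT-HSC against MUL-HSC, 2 of 64 tested members were called, both lower in PLT-HSC and both in the Cdk6 window. The background in this comparison is 2.41% of 59408 tested regions called in either direction, 1.13% higher and 1.28% lower in PLT-HSC, so 2 of 64 (3.12%) is near the share found across the genome. At an unadjusted p under 0.05, 4 were higher and 8 lower in PLT-HSC (background 7.47% and 7.93%, 15.4% in all), and groups did not overlap in 3 higher and 7 lower regions (background 6.67% and 6.56%, 13.2% in all). Leaving out PLT-HSC replicate 3 gave 3 calls, leaving out MUL-HSC replicate 4 or PLT-HSC replicate 1 gave 0, and leaving out MUL-HSC replicate 1, 2 or 3 or PLT-HSC replicate 2 gave 1. Calls over the whole table moved too, from 1431 to 2034 without PLT-HSC replicate 3, 485 without MUL-HSC replicate 4 and 350 without PLT-HSC replicate 1.

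In PEM-HSC against MUL-HSC, edgeR called 0 of 64 (background 0.832%, with 0.242% higher and 0.589% lower). At an unadjusted p under 0.05, 2 were higher and 5 lower (background 6.2% and 7.45%, 13.6% in all), and 3 regions did not overlap, all lower in PEM-HSC (background 1.51% higher and 2.08% lower, 3.59% in all). In PLT-HSC against PEM-HSC, edgeR called 0 of 64 (background 0.00168%). There, 5 were higher and 4 lower at an unadjusted p under 0.05 (background 2.45% and 2.16%, 4.61% in all), and 2 higher and 2 lower regions did not overlap (background 1.32% and 0.968%, 2.29% in all). DESeq2 called 1, 0 and 0 members in PLT-HSC against MUL-HSC, PEM-HSC against MUL-HSC and PLT-HSC against PEM-HSC, where it called 1114, 466 and 0 regions over the whole table. The median log2 fold change of the tested members was -0.02, 0.02 and -0.02, against 0.012, 0.015 and 0 over all tested regions. The comparisons share libraries, so their counts are not independent.

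**Figure D1:**
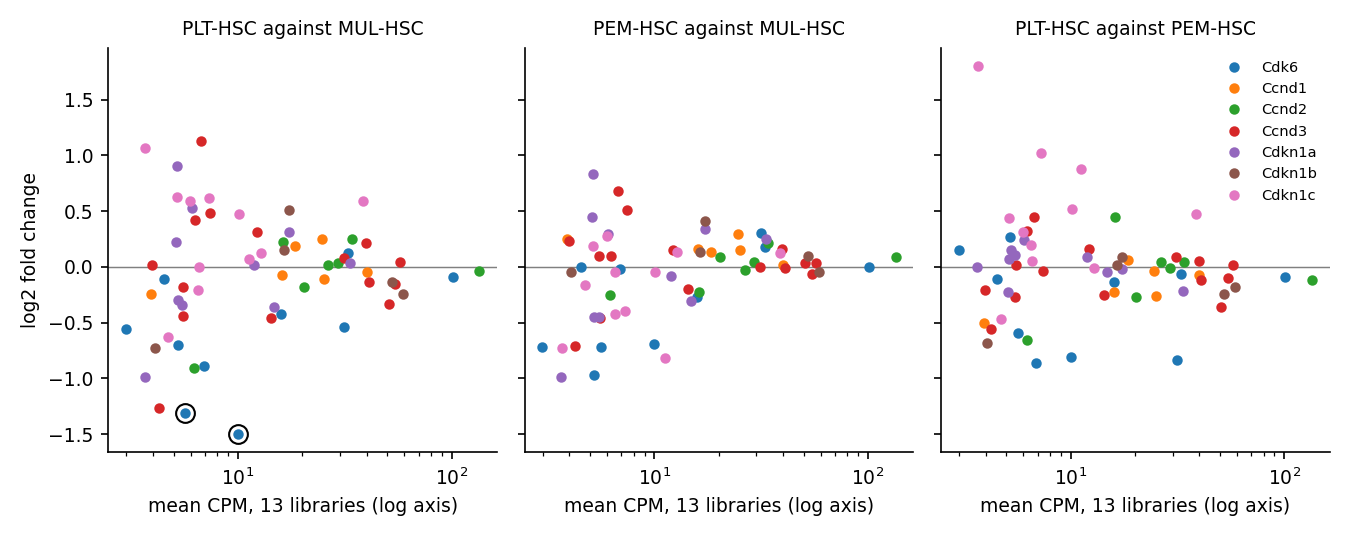
Log2 fold change (vertical axis) against mean CPM over 13 libraries (horizontal log axis) for the 64 tested members in each comparison, coloured by locus, with called regions ringed. The 2 ringed regions, both of the Cdk6 window, lie at -1.50 and -1.31 in PLT-HSC against MUL-HSC, and no region is ringed in the other comparisons.

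At Cdk6, the kinase, PLT-HSC libraries were less accessible than MUL-HSC libraries at 2 called regions that lie away from the strongest region of the window. The larger change was on chromosome 5 from 3404645 to 3405867, 62.3 kb from the centre of the strongest region and 1222 bp wide. MUL-HSC replicates 1 to 4 had 17.3, 12.4, 11.5 and 18.3 CPM there. PLT-HSC replicates 1 to 3 had 3.25, 4.20 and 8.24 CPM. PEM-HSC ranged from 5.16 to 12.7 CPM with a median of 9.59. Every PLT-HSC library was below every MUL-HSC library, whereas PEM-HSC overlapped both groups. The PLT-HSC mean of 5.23 ± 2.65 CPM (SD, n = 3) was 35.2% of the MUL-HSC mean of 14.9 ± 3.42 CPM (SD, n = 4), and the fitted log2 fold change was -1.50 ± 0.33 (SE, edgeR adjusted p = 0.0125). PEM-HSC averaged 9.15 ± 2.66 CPM (SD, n = 6), with log2 fold changes of -0.69 ± 0.26 against MUL-HSC (edgeR adjusted p = 0.214) and -0.81 ± 0.31 for PLT-HSC against PEM-HSC (edgeR adjusted p = 1). Raw counts behind the means totalled 113 over MUL-HSC, 133 over PEM-HSC and 44 over PLT-HSC libraries. The call was lost without MUL-HSC replicate 4 (edgeR adjusted p = 0.0629), PLT-HSC replicate 1 (0.111) or PLT-HSC replicate 2 (0.0555). It was also lost when libraries of fewer than 2000000 counts were dropped (0.0743), which leaves out MUL-HSC replicates 1 and 2. Fitting the replicate number as a block ended the call too (0.0739). The adjusted p ranged from 0.00291 to 0.111 over its 22 alternatives. Without MUL-HSC replicate 3 the call was kept, at -1.62.

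The second called region lay on chromosome 5 from 3497513 to 3498011, 154.9 kb from the centre of the strongest region. It had 7.06, 7.44, 9.53 and 8.77 CPM in MUL-HSC replicates 1 to 4. PLT-HSC replicates 1 to 3 had 2.28, 4.67 and 3.30 CPM, and PEM-HSC libraries 4.01 to 6.26 CPM with a median of 4.98. Both restricted groups lay wholly below MUL-HSC, and PEM-HSC overlapped PLT-HSC. The PLT-HSC mean of 3.42 ± 1.20 CPM (SD, n = 3) was 41.7% of the MUL-HSC mean of 8.20 ± 1.15 CPM (SD, n = 4), and the fitted log2 fold change was -1.31 ± 0.34 (SE, edgeR adjusted p = 0.0360). For PEM-HSC, at 5.05 ± 0.764 CPM (SD, n = 6), the log2 fold change against MUL-HSC was -0.72 ± 0.28 (edgeR adjusted p = 0.230). This call was the less stable: it was past the threshold in 10 of 21 alternatives, with adjusted p from 0.0324 to 0.210. DESeq2 gave 0.0839, and leaving out any 1 MUL-HSC library, or PLT-HSC replicate 1 or 3, ended it.

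**Figure D2:**
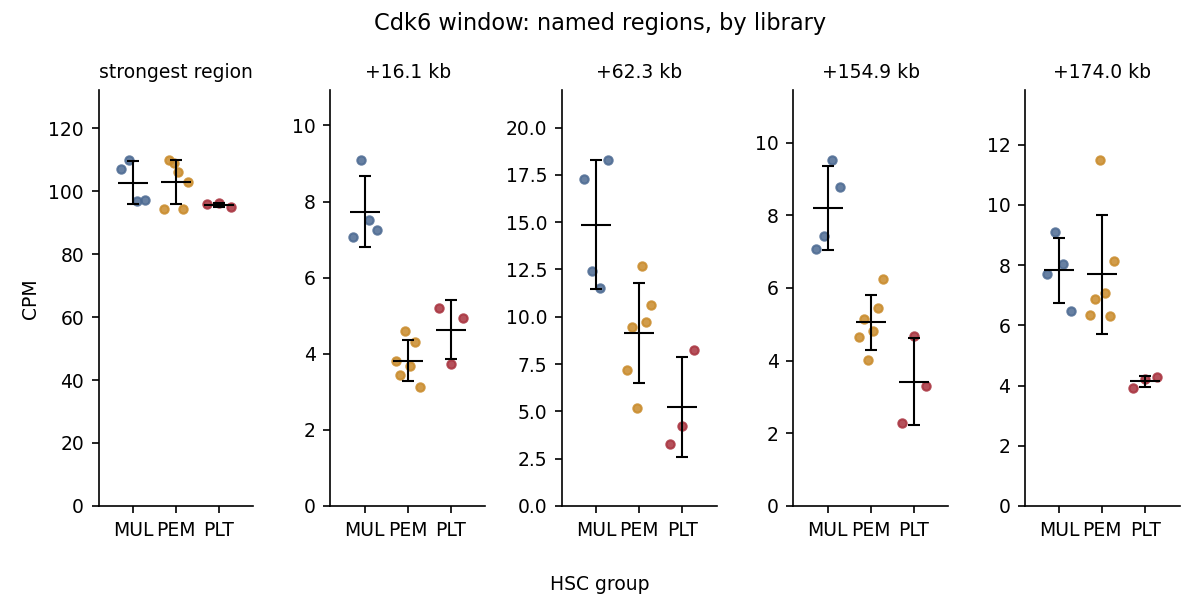
CPM (vertical axis, a separate scale from 0 in each panel) of the 5 named Cdk6 regions in every library, by HSC group, with bars for the mean ± SD; panels are headed by distance from the strongest region. At +62.3 kb and +154.9 kb every PLT-HSC point is below every MUL-HSC point, while the strongest region stays between 94.2 and 110 CPM in all 13 libraries.

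The strongest region of the Cdk6 window, on chromosome 5 from 3341113 to 3344709, was the widest of the 91 members at 3596 bp and did not differ past the threshold. There, MUL-HSC replicates 1 to 4 had 107, 110, 96.8 and 97.2 CPM and PLT-HSC replicates 1 to 3 had 96.0, 96.2 and 95.0. The highest PLT-HSC library lay just below the lowest MUL-HSC library, and the log2 fold change was -0.09 ± 0.10 (SE, edgeR adjusted p = 0.736). PEM-HSC spanned 94.2 to 110 CPM, with a log2 fold change against MUL-HSC of 0.00 ± 0.09.

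Other Cdk6 regions had lower means in one or both restricted groups without passing the test. On chromosome 5 from 3358706 to 3359401, MUL-HSC replicates 1 to 4 had 7.06, 9.10, 7.52 and 7.24 CPM. PEM-HSC lay at 3.13 to 4.59 (median 3.74) and PLT-HSC replicates 1 to 3 at 5.21, 3.74 and 4.95. Both restricted groups were wholly below MUL-HSC, with log2 fold changes of -0.97 ± 0.28 for PEM-HSC (edgeR adjusted p = 0.0932) and -0.70 ± 0.32 for PLT-HSC (edgeR adjusted p = 0.285). It was the member of smallest p in PEM-HSC against MUL-HSC.

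The region from 3516550 to 3517179 showed another order. PLT-HSC replicates 1 to 3 had 3.91, 4.20 and 4.29 CPM, below every library of MUL-HSC (7.70, 9.10, 8.03 and 6.48) and of PEM-HSC (6.30 to 11.5, median 6.97). Its log2 fold change was -0.89 ± 0.33 against MUL-HSC (edgeR adjusted p = 0.155) and -0.86 ± 0.30 against PEM-HSC (edgeR adjusted p = 0.979). The region from 3432592 to 3433934, mentioned here after its values were seen, varied widely within groups. PLT-HSC replicate 1 had 6.51 CPM there, against 34.6 and 23.4 in the other PLT-HSC libraries and 18.6 to 34.6 in MUL-HSC.

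Among the 10 tested Cdk6 regions, 9 had a negative log2 fold change in PLT-HSC against MUL-HSC (background 48.6%) and the median was -0.55. At an unadjusted p under 0.05, 4 were lower and 0 higher (background 15.4% in either direction, 7.93% lower). Libraries of the 2 groups did not overlap in 5 of 10, all lower in PLT-HSC (background 13.2% in either direction, 6.56% lower). In PEM-HSC against MUL-HSC the median was -0.15, with 3 lower at an unadjusted p under 0.05 (background 7.45% lower, 13.6% in all) and 2 without overlap, both lower (background 2.08% lower, 3.59% in all). In PLT-HSC against PEM-HSC the median was -0.12, with 3 lower at an unadjusted p under 0.05 (background 2.16% lower, 4.61% in all) and 1 without overlap, also lower (background 0.968% lower, 2.29% in all). Neighbouring regions come from the same libraries and are not independent observations.

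**Figure D3:**
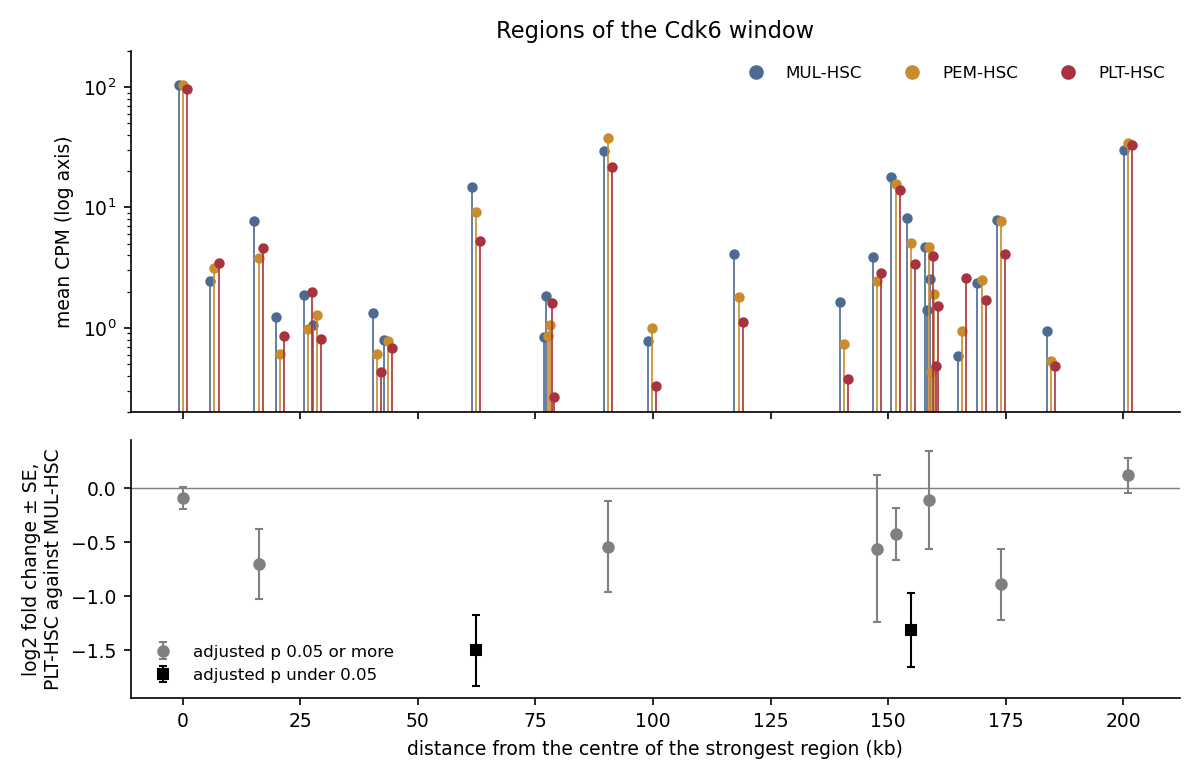
Upper panel, mean CPM per group (log axis) of the 26 Cdk6 regions against distance in kb from the centre of the strongest region; lower panel, log2 fold change ± SE of the 10 tested regions in PLT-HSC against MUL-HSC. The 2 called regions (squares) lie at 62.3 and 154.9 kb, and 9 of the 10 values are below 0 (48.6% over all tested regions).

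Summed over all 26 regions, the Cdk6 window had 245, 258, 249 and 260 CPM in MUL-HSC replicates 1 to 4 and 190, 225 and 206 CPM in PLT-HSC replicates 1 to 3. PEM-HSC ranged from 229 to 264 CPM with a median of 241. All PLT-HSC sums were below those of both other groups, and PEM-HSC overlapped MUL-HSC. The means were 253 ± 7.18 (SD, n = 4), 242 ± 12.8 (SD, n = 6) and 207 ± 17.7 (SD, n = 3) for MUL-HSC, PEM-HSC and PLT-HSC. Without the strongest region the PLT-HSC mean was 73.9% of the MUL-HSC mean, and at the strongest region alone it was 93.3%. The strongest region accordingly held 40.6% ± 2.95 of the window's CPM in MUL-HSC (SD, n = 4), 42.4% ± 2.44 in PEM-HSC (SD, n = 6) and 46.5% ± 3.95 in PLT-HSC (SD, n = 3). The 16 regions too weak to test, each averaging 0.645 to 3.00 CPM over all libraries, summed to 25.8 ± 1.33 CPM (SD, n = 4) for MUL-HSC, 19.2 ± 3.20 (n = 6) for PEM-HSC and 18.7 ± 2.55 (n = 3) for PLT-HSC. In that sum MUL-HSC (24.0 to 27.0) was above both PEM-HSC (14.6 to 23.5) and PLT-HSC (15.8 to 20.6). Sums over a window were described and not tested, and no background was computed for groups that do not overlap in such sums. The whole Cdk6 sum includes the 2 called regions and the region from 3432592 to 3433934, where PLT-HSC replicate 1 had 6.51 CPM. It is therefore not separate from the values given above. In bulk counts, fewer cells with an open region and a less open region in each cell cannot be told apart.

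**Figure D4:**
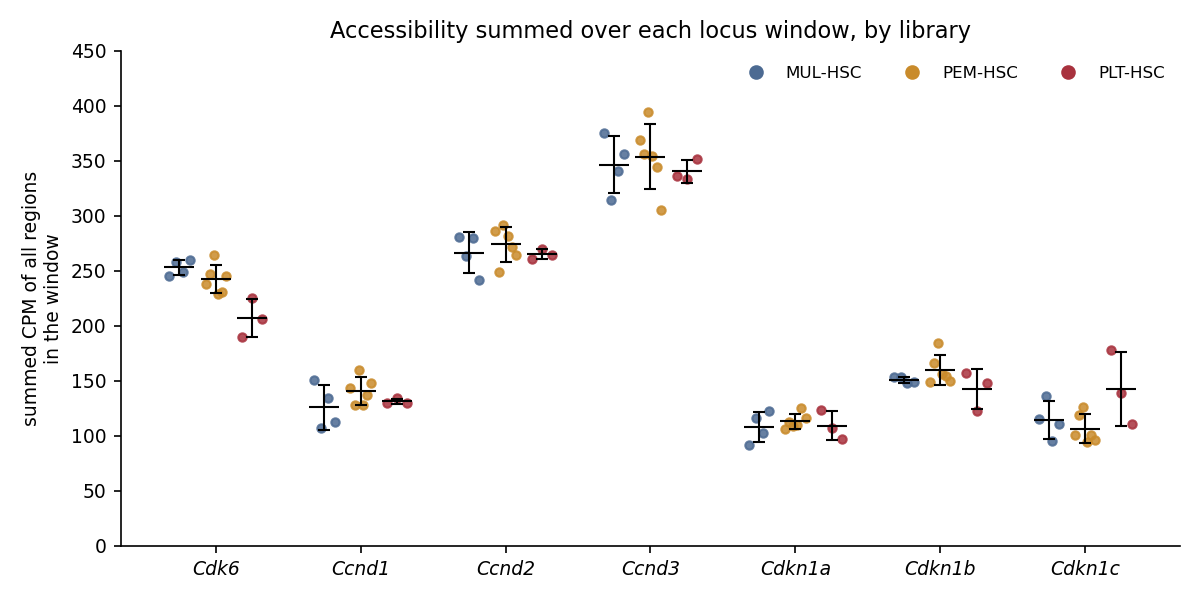
CPM summed over all regions of each locus window (vertical axis from 0) in every library, by gene and HSC group, with bars for the mean ± SD. At Cdk6 the PLT-HSC libraries (190 to 225) lie below all MUL-HSC (245 to 260) and PEM-HSC (229 to 264) libraries, and at the other 6 loci the groups overlap. No background was computed for such sums.

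Elsewhere in the genome, the patterns over the 13 libraries most like that of the +62.3 kb Cdk6 region were on chromosome 13 from 45251612 to 45252571 (Pearson r of log2 CPM 0.962), chromosome 7 from 128660279 to 128661297 (0.955) and chromosome 2 from 25936360 to 25937059 (0.945). They were picked as the highest of 55689 regions on other chromosomes, and all values share the same libraries. The chromosome 7 region averaged 26.2 ± 3.46 CPM (SD, n = 4) for MUL-HSC, 10.7 ± 4.23 (n = 6) for PEM-HSC and 7.15 ± 5.26 (n = 3) for PLT-HSC. That is the order at Cdk6, which a pick by correlation favours.

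The D-type cyclins, the activating partners of Cdk6, had 0 of 28 called regions in each comparison, by edgeR (background 2.41%, 0.832% and 0.00168% for PLT-HSC against MUL-HSC, PEM-HSC against MUL-HSC and PLT-HSC against PEM-HSC) and by DESeq2. At an unadjusted p under 0.05 edgeR found 4, 1 and 2 of them in the same order, against backgrounds of 15.4%, 13.6% and 4.61%. At Ccnd2, a D-type cyclin known from B cells and the ovary, the window's strongest region was also the strongest of all 91 members, on chromosome 6 from 127100954 to 127102743. MUL-HSC replicates 1 to 4 had 154, 123, 142 and 111 CPM, PLT-HSC replicates 1 to 3 had 119, 133 and 135, and PEM-HSC 131 to 157 with a median of 133. The groups overlapped, and log2 fold changes were -0.04 ± 0.11 for PLT-HSC and 0.09 ± 0.10 for PEM-HSC against MUL-HSC (SE, edgeR adjusted p = 0.924 and 0.758). The Ccnd2 sum was 267 ± 18.3 CPM (SD, n = 4) for MUL-HSC, 274 ± 16.1 (n = 6) for PEM-HSC and 265 ± 4.18 (n = 3) for PLT-HSC. The Ccnd2 region of smallest p in PLT-HSC against MUL-HSC, from 127115579 to 127116049, had 8.98, 8.27, 3.51 and 9.53 CPM in MUL-HSC replicates 1 to 4 and 3.91, 3.74 and 4.29 in PLT-HSC replicates 1 to 3. MUL-HSC replicate 3 lay below every PLT-HSC value, and the log2 fold change of -0.91 ± 0.39 did not pass (edgeR adjusted p = 0.241). Regions of smallest p in the other comparisons, from 127104670 to 127105387 in PEM-HSC against MUL-HSC and from 127112700 to 127113299 in PLT-HSC against PEM-HSC, had log2 fold changes of 0.21 ± 0.14 and 0.45 ± 0.21 (edgeR adjusted p = 0.541 and 1).

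At Ccnd1, a cyclin induced by mitogens, 0 of 6 tested regions reached an unadjusted p under 0.05 in any comparison, a count too small to read against the backgrounds of 15.4%, 13.6% and 4.61%. The strongest, on chromosome 7 from 152100200 to 152101544, had 50.7, 47.1, 36.6 and 30.1 CPM in MUL-HSC replicates 1 to 4, a range that enclosed all PLT-HSC values (38.7, 36.9 and 39.9) and all PEM-HSC values (35.2 to 46.5). The region of smallest p against MUL-HSC, from 152125467 to 152125900, had log2 fold changes of 0.25 ± 0.20 in PLT-HSC and 0.29 ± 0.17 in PEM-HSC (edgeR adjusted p = 0.595 and 0.481). That of smallest p between the restricted groups, from 152127181 to 152127691, had -0.26 ± 0.15 (edgeR adjusted p = 1). The log2 fold changes of the tested Ccnd1 regions lay between -0.24 and 0.25 in PLT-HSC and between 0.02 and 0.29 in PEM-HSC. The 2 Ccnd1 regions too weak to test summed to 3.31 to 5.02 CPM in MUL-HSC. This was below 5.09 to 7.73 in PEM-HSC and 5.86 to 7.94 in PLT-HSC. The separation rests on raw counts of 16 and 15 over the MUL-HSC libraries, and no background was computed for such sums. In the 5 windows other than those of Ccnd1 and Cdk6, the sums of untested regions overlapped between all groups. The whole sum was 126 ± 20.4 CPM (SD, n = 4) for MUL-HSC, 141 ± 12.4 (n = 6) for PEM-HSC and 131 ± 2.17 (n = 3) for PLT-HSC.

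At Ccnd3, the D-type cyclin prominent in lymphoid and erythroid progenitors, sums were 347 ± 25.9 CPM (SD, n = 4) for MUL-HSC, 354 ± 29.4 (n = 6) for PEM-HSC and 340 ± 10.4 (n = 3) for PLT-HSC. The strongest region, on chromosome 17 from 47638728 to 47639608, averaged 56.7 ± 6.06, 57.5 ± 10.4 and 58.2 ± 5.42 CPM in the same groups and overlapped throughout. A weaker region from 47664397 to 47664831 came nearest to a call in the opposite direction to the Cdk6 regions. The 4 MUL-HSC libraries had 5.13, 1.65, 6.02 and 4.19 CPM and PLT-HSC replicates 1 to 3 had 10.4, 10.7 and 8.24. PEM-HSC spanned 4.01 to 9.39 with a median of 7.52 and overlapped both. The log2 fold change was 1.13 ± 0.34 for PLT-HSC against MUL-HSC (SE, edgeR adjusted p = 0.0737), and 0.0504 to 0.283 was the range of its adjusted p over 21 alternatives. Of 15 tested Ccnd3 regions, 1 was higher and 2 lower in this comparison at an unadjusted p under 0.05 (background 7.47% and 7.93%). A lower one, from 47678970 to 47679583, is mentioned after its values were seen. Its log2 fold change was -1.27 ± 0.44 (edgeR adjusted p = 0.128), and the groups overlapped. Between the restricted groups, the smallest Ccnd3 p was from 47730091 to 47731297, where PLT-HSC replicates 1 to 3 had 50.1, 32.2 and 42.9 CPM and PEM-HSC 48.4 to 63.1 with a median of 52.5. PLT-HSC replicate 1 lay within the PEM-HSC range, and the log2 fold change of -0.36 ± 0.13 had an adjusted p of 1 by edgeR.

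The Cdkn1 inhibitors had 0 of 26 called regions in each comparison, by edgeR and by DESeq2, with 4, 3 and 4 at an unadjusted p under 0.05 in PLT-HSC against MUL-HSC, PEM-HSC against MUL-HSC and PLT-HSC against PEM-HSC. The backgrounds in that order were 2.41%, 0.832% and 0.00168% for calls, and 15.4%, 13.6% and 4.61% for the unadjusted p. The 4 of the last comparison were all at Cdkn1c. At Cdkn1a (p21), the effector of p53 arrest, 2 weak regions showed opposite directions. The one from 29213219 to 29213511 on chromosome 17 had 5.13, 5.79, 4.51 and 6.86 CPM in MUL-HSC replicates 1 to 4. PEM-HSC had 1.72 to 3.80 (median 2.56) and PLT-HSC replicates 1 to 3 had 2.28, 3.27 and 2.97. Both restricted groups were wholly below MUL-HSC, each with a log2 fold change of -0.99 (SE 0.44 for PLT-HSC and 0.38 for PEM-HSC; edgeR adjusted p = 0.267 and 0.224). The one from 29231535 to 29232030, mentioned after its values were seen, averaged 3.04 ± 1.47 CPM (SD, n = 4) for MUL-HSC, 6.09 ± 1.36 (n = 6) for PEM-HSC and 6.09 ± 2.91 (n = 3) for PLT-HSC, and overlapped between groups. The strongest Cdkn1a region, from 29232073 to 29232777, averaged 30.3 ± 4.60, 36.6 ± 4.19 and 31.3 ± 5.09 CPM in the same order, with a log2 fold change of -0.22 ± 0.14 for PLT-HSC against PEM-HSC (edgeR adjusted p = 1). The window sum was 108 ± 13.7, 113 ± 6.50 and 109 ± 13 CPM in MUL-HSC, PEM-HSC and PLT-HSC.

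At Cdkn1b (p27), the strongest region, on chromosome 6 from 134869491 to 134870822, had 66.1, 67.0, 60.2 and 57.2 CPM in MUL-HSC replicates 1 to 4 and 61.2, 46.2 and 49.8 in PLT-HSC replicates 1 to 3. PLT-HSC replicate 1 lay within the MUL-HSC range, and the log2 fold change was -0.24 ± 0.13 (SE, edgeR adjusted p = 0.383). The region from 134876878 to 134877820 had the smallest p in both comparisons with MUL-HSC, with log2 fold changes of 0.51 ± 0.24 in PLT-HSC and 0.41 ± 0.21 in PEM-HSC (edgeR adjusted p = 0.302 and 0.401). Its neighbour from 134877990 to 134878996 had a log2 fold change of -0.24 ± 0.12 for PLT-HSC against PEM-HSC (edgeR adjusted p = 1). The window sum was 151 ± 2.56 CPM (SD, n = 4) for MUL-HSC, 160 ± 13.1 (n = 6) for PEM-HSC and 142 ± 17.8 (n = 3) for PLT-HSC.

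At Cdkn1c (p57), an imprinted gene, means were higher in PLT-HSC than in PEM-HSC at most regions, with no call. Of 11 tested regions, 9 had a positive log2 fold change in PLT-HSC against PEM-HSC, where 50.0% of all tested regions were below 0. The median was 0.44, and 4 regions were higher at an unadjusted p under 0.05 (background 2.45% higher). The smallest adjusted p was 0.922 (edgeR). Against MUL-HSC, the median was 0.47 in PLT-HSC and -0.05 in PEM-HSC.

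The strongest Cdkn1c region, on chromosome 7 from 150646734 to 150647500, had 64.1, 57.5 and 27.4 CPM in PLT-HSC replicates 1 to 3. MUL-HSC replicates 1 to 4 had 35.3, 38.9, 28.6 and 30.9, and PEM-HSC 29.1 to 46.4 with a median of 34.7. PLT-HSC replicates 1 and 2 were above all other libraries, and replicate 3 was below all of them. The log2 fold change of 0.59 ± 0.24 against MUL-HSC did not pass (SE, edgeR adjusted p = 0.245), but without PLT-HSC replicate 3 it was 0.89 (edgeR adjusted p = 0.00321), so 1 library decides this value.

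The region from 150650760 to 150651258 had 16.6, 12.1 and 13.9 CPM in PLT-HSC replicates 1 to 3, above all PEM-HSC libraries (4.59 to 11.3, median 7.73). MUL-HSC replicates 1 to 4, at 18.0, 20.7, 6.52 and 11.8, enclosed the PLT-HSC range and overlapped that of PEM-HSC. Its log2 fold change was 0.88 ± 0.28 for PLT-HSC against PEM-HSC (edgeR adjusted p = 0.922) and -0.82 ± 0.28 for PEM-HSC against MUL-HSC (edgeR adjusted p = 0.158). Without MUL-HSC replicate 3, the lowest MUL-HSC library there, the PEM-HSC value became -1.07 (edgeR adjusted p = 0.0305). Without libraries of fewer than 2000000 counts it was -0.26 (edgeR adjusted p = 0.890). That cut leaves out MUL-HSC replicates 1 and 2, the highest MUL-HSC libraries at this region. The region from 150645410 to 150646013 had 16.9, 7.01 and 8.90 CPM in PLT-HSC replicates 1 to 3 and 2.58 to 9.75 (median 4.94) in PEM-HSC, so that the groups overlapped. The weak region from 150660835 to 150661081 had 8.79, 4.20 and 7.26 CPM in PLT-HSC replicates 1 to 3 and 0.422 to 4.01 (median 2.42) in PEM-HSC, a log2 fold change of 1.80 ± 0.53 (edgeR adjusted p = 0.922) that rests on 58 and 25 counts. Without libraries of fewer than 2000000 counts, which leaves out PEM-HSC replicates 2, 3 and 6, it was 2.95 (edgeR adjusted p = 0.152). The Cdkn1c sum was 114 ± 16.8 CPM (SD, n = 4) for MUL-HSC, 106 ± 13.2 (n = 6) for PEM-HSC and 143 ± 33.7 (n = 3) for PLT-HSC. PLT-HSC replicates 1 to 3 stood at 178, 139 and 111, so the third lay within the range of the other groups.

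**Figure D5:**
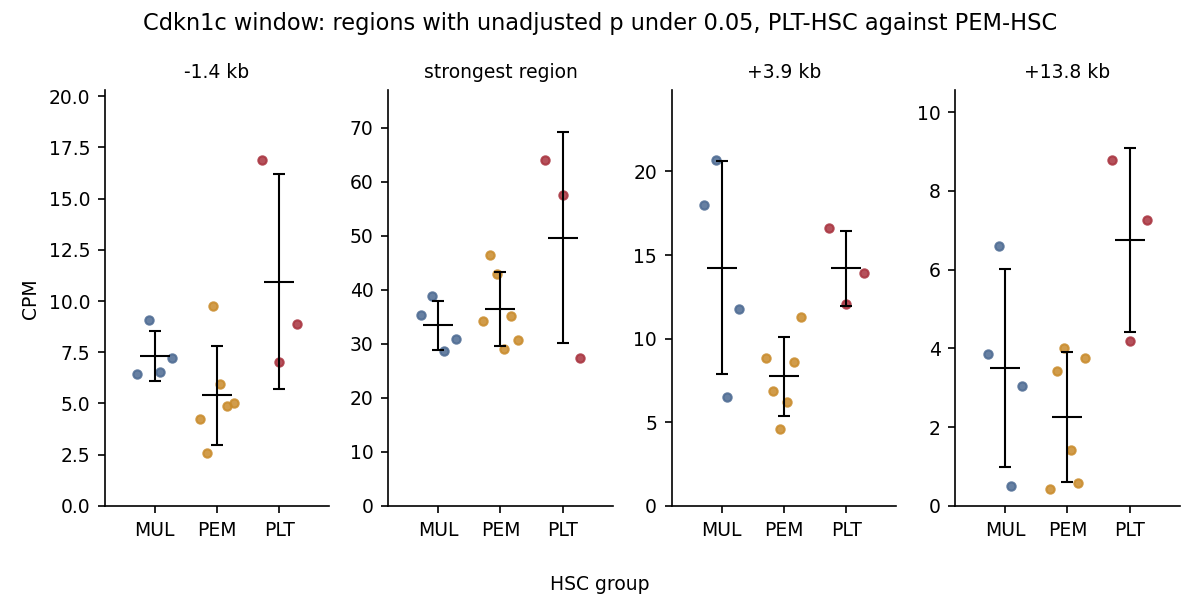
CPM (vertical axis, a separate scale from 0 in each panel) in every library of the 4 Cdkn1c regions with an unadjusted p under 0.05 in PLT-HSC against PEM-HSC, with bars for the mean ± SD; panels are headed by distance from the strongest region. In the strongest region PLT-HSC replicates span 27.4 to 64.1 CPM, and at +3.9 and +13.8 kb all PLT-HSC points are above all PEM-HSC points.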

How the data were processed

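Omni-ATAC-seq libraries of 13 samples in 3 groups were analysed from a deposited table of unnormalized counts per accessible region that the authors made. The tools named per the submitters' processing notes are Bowtie2, MACS2, Picard, SAMtools, FastQC and Trim Galore, and the genome is mm9. For versions, counting, duplicates, read shifts and pooling for peaks, details were not given in the sources used here. Had peaks been called on pooled libraries, deeper groups could weigh more in which regions are listed. Whether starts count from 0 or 1 is also unstated.

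Counts were fitted in R 4.3.3 with edgeR 4.0.16 (filterByExpr by group, TMM, robust quasi-likelihood fit of all 13 libraries, two-sided). Standard errors are the log2 fold change divided by the root of F, and p-values were adjusted (Benjamini-Hochberg) over 59408 regions. Since separate recipients are not stated in the labels, the p-values reflect the spread among these samples only, which may be technical. Low counts limit precision: the +154.9 kb Cdk6 region had 27 counts over PLT-HSC. The function was also run on simulated counts with a common spread for all regions and no library effects beyond depth. That run does not address the dependence on single libraries.

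Members and lists were chosen with earlier results of these data known. Regions named in each window are the strongest, those of smallest p per comparison and all called ones. Log2 CPM used a prior count of 2. Alternatives were DESeq2 1.42.0, total scaling, other filters, other fits, 1 surrogate variable (sva 3.50.0) and leaving out libraries. Other cell-cycle genes were not analysed here, for lack of an mm9 annotation.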

Additional observations from a re-analysis of the deposited data

Results flagged for a closer look

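Values of 23 named regions and 7 window sums were examined in MUL-HSC and PEM-HSC, 60 sets in all, for a library far from the rest of its group. There were 2 such libraries, and chance marks about 1 set in 20. At the Cdk6 region from 3516550 to 3517179, PEM-HSC replicate 3 had 11.5 CPM and the next highest library 8.14. At the Ccnd2 region from 127115579 to 127116049, PEM-HSC replicate 6 had 11.9 CPM and the next highest 7.07.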

How the results depend on the processing

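The count of 2 called members in PLT-HSC against MUL-HSC became 1 with DESeq2, with 1 surrogate variable, when the compared groups were fitted alone or when regions needed a mean of 20 counts, and 0 without the libraries under 2000000 counts, and it ranged from 0 to 3 with each library left out. Over the whole table, the 1431 calls of this comparison became 577 with the mean of 20 counts, 853 with 1 surrogate variable and 275 without those libraries, and the 494 of PEM-HSC against MUL-HSC became 230 with that mean and 13 without those libraries. Among the members, the 0 of PEM-HSC against MUL-HSC ranged from 0 to 1 (1 without MUL-HSC replicate 3), and the count in PLT-HSC against PEM-HSC was 0 in all 23 alternatives. The +62.3 kb Cdk6 region (log2 fold change -1.50) stayed past the threshold in 17 of 22 alternatives; it was at -1.51 without the libraries under 2000000 counts and -2.03 to -1.22 with each library left out. The +154.9 kb Cdk6 region (-1.31) lost the threshold at -1.33 by DESeq2, -1.31 in the fit of both groups alone, -1.32 with 1 surrogate variable and -1.46 without the libraries under 2000000 counts, and ranged from -1.55 to -1.08 with each library left out. The filter and the fits with fewer libraries test fewer regions or samples by construction; for the others the cause was not tested.

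Replicate numbers recur across groups, and the labels do not say whether they pair the samples. Of 10 same-numbered pairs, 0 had deviations correlated above 0.1 (-0.136 to 0.099). By the same measure, 0 of 13 libraries correlated best with their own number. PEM-HSC replicates 5 and 6 had no same-numbered partner, so for them this was fixed in advance. Low correlations over all regions cannot exclude pairing. With the replicate number as a block (replicate block) 0 members were called in PLT-HSC against MUL-HSC (682 over the whole table, and 108 in PEM-HSC against MUL-HSC), and the Cdk6 regions were at -1.31 (adjusted p = 0.0739) and -1.29 (0.107, edgeR quasi-likelihood test).

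Of 537 alternatives for the other 25 log2 fold changes, 532 kept direction and side. The strongest Ccnd3 region in PLT-HSC against MUL-HSC (0.04) turned to -0.01 without MUL-HSC replicate 2 or 4 and -0.04 without PLT-HSC replicate 3, and the other 2 became calls at Cdkn1c, as given above. Summing only regions that passed the filter moved the Cdk6 sums to 227, 223 and 188 CPM in MUL-HSC, PEM-HSC and PLT-HSC, that of Ccnd1 in PLT-HSC to 124 and that of Cdkn1b in MUL-HSC to 148, since weak regions drop out. The other 149 of 154 sums moved by less than 1 SD. Regions overlapping a window in part gave the same 91 members.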
